A study of Mus musculus with 5 samples.

Results

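The genes described here are 5 mouse genes that are textbook targets of the transcription factor NF-kappaB and act in its feedback or in cell survival and death: Nfkbia, Birc3, Bcl2a1a, Tnfrsf1b and Fas. They were taken by exact gene symbol from the platform annotation, which gave 1 probe for each, so 5 probes stand for 5 of the 9050 gene symbols on the array. RNA of bone marrow-derived macrophages from C3H/ARC mice was measured on 5 two-colour cDNA arrays, 1 array each at 0, 0.5, 2, 7 and 21 h. The cells of every array had been differentiated in vitro with human CSF-1, on which macrophages depend for growth. Those of the 0 h array had no LPS, and the others had LPS of S. minnesota at 10 µg per ml. The second channel of each array was a whole-embryo RNA (C57BL6/J, 17.5 days), a common reference of another strain that is no control group. The labels do not say how many mice or cultures stand behind an array, and there are no replicates, so the report holds no p-value and single arrays set the precision.

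NF-kappaB is held in the cytoplasm by IkappaB proteins. LPS acts through the receptor Tlr4 and its adaptors on the IKK kinase complex, which marks IkappaB for breakdown, and the freed factor enters the nucleus. There it switches on inflammatory genes and also its own inhibitors, of which Nfkbia, encoding IkappaBalpha, is the best known, so that the signal is limited in time. Other targets keep the stimulated macrophage alive, such as Birc3, a ubiquitin ligase of the IAP family, and Bcl2a1a, a Bcl2 relative that binds pro-death members of that family. Tnfrsf1b encodes the type 2 receptor for TNF, and Fas the death receptor for Fas ligand.

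The upstream sequences of 3 of these genes are shown because each had the greatest change from 0 h of the 5 genes at some time after LPS: Nfkbia at 0.5 h, Birc3 at 7 h, and Bcl2a1a at 2 h and 21 h. They are RefSeq sequences of build GRCm38.p6, written 5′ to 3′ on the gene's strand and ended before the annotated gene; RefSeq promoters matched all 5 genes. Capitals mark matches on either strand to 4 motifs: GGGNNNNNCC, the outer letters of NF-kappaB sites; GGGNNTTTCC, a narrower NF-kappaB form contained in the first; TGANTCA, the AP-1 site; and GAGGAAGT, a form of the site of PU.1, the macrophage lineage factor.
Nfkbia, chr12:55492648-55492897, minus strand: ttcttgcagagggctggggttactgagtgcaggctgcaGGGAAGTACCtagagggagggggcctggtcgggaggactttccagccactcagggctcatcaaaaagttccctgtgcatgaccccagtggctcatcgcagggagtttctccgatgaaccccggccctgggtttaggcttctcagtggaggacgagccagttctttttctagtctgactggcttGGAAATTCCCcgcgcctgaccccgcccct
Birc3, chr9:7873206-7873420, minus strand: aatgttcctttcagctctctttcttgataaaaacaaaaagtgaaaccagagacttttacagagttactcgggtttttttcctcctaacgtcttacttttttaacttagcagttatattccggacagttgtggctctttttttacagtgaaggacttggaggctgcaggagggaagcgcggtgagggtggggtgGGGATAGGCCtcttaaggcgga
Bcl2a1a, chr9:88956670-88956919, plus strand: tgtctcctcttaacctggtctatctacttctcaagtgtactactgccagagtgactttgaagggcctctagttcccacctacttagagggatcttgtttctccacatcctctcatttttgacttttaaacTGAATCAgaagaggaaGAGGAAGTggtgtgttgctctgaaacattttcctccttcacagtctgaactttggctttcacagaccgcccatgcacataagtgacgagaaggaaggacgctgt

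The wide motif GGGNNNNNCC was found upstream of 4 of the 5 genes, all except Bcl2a1a, and in 45.8% of 32851 RefSeq promoter windows of 250 bases. The narrower GGGNNTTTCC was found upstream of Nfkbia alone, as GGAAATTCCC on the printed strand, beginning 29 bases before the gene start. That motif was found in 1.41% of all windows. TGANTCA was found upstream of Bcl2a1a and of Fas (6.75% of windows), and GAGGAAGT upstream of Bcl2a1a alone (2.44%). The Birc3 and Fas windows are shorter, with 215 and 238 bases. These matches describe letters in a window and are no evidence of binding.

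The deposited values are log ratios, read as log10 of macrophage over embryo; neither base nor direction is stated. Base 10 was inferred from the range of the values (5th to 95th percentile of -0.378 to 0.415 at 0 h). If the base were 2, every log2 value below would be 3.32 times too large. The direction is likely, since the 8 measured of 21 macrophage markers had median log2 ratios between 2.19 and 2.70 on the 5 arrays and the 26 measured of 28 embryo markers between -2.11 and -1.63. Lyz2, the macrophage lysozyme, stood at 3.80 to 4.16, but 3 of the 8 macrophage markers (Cd68, Fcgr2b and Tyrobp) were below 0 at 0 h. With the opposite direction, each higher below would read lower. The arrays correlated with each other at r = 0.631 to 0.878 over probes.

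The 0.5 h and 2 h arrays hold many high ratios that follow the probe number. Of 207 runs of 96 consecutive probe numbers, 94 were marked because on one of these 2 arrays 10% or more of their probes exceeded the 0 h value by 2-fold. All 5 genes have their probe outside the marked runs, and counts over all 8637 genes measured on every array are followed by those over the 5996 genes with probes outside the runs. The marked runs were picked by high early values, which itself lowers the early counts outside them. Of the 8637 genes, 3015 are means of several probes, which tends to narrow their changes. Each of the 5 genes rests on 1 probe, so its rank among all genes may look more extreme than it is.

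After LPS the 5 genes stood highest together at 7 h. On that array they were between 2.83-fold (Fas) and 6.63-fold (Birc3) above 0 h, with a median of 4.80-fold. The course before 7 h differed: Nfkbia was already 2.55-fold higher at 0.5 h, Bcl2a1a and Tnfrsf1b passed 2-fold at 2 h, and Birc3 and Fas passed it only at 7 h. At 21 h all 5 were lower than at 7 h and still above 0 h, by 1.43-fold to 2.68-fold. Ratios are given below as log2 of macrophage over embryo with each array's median set to 0, and a change is the difference of such ratios between 2 arrays. RNA was taken from whole cultures, so more RNA per cell and more cells that express a gene cannot be told apart.

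**Figure D1:**
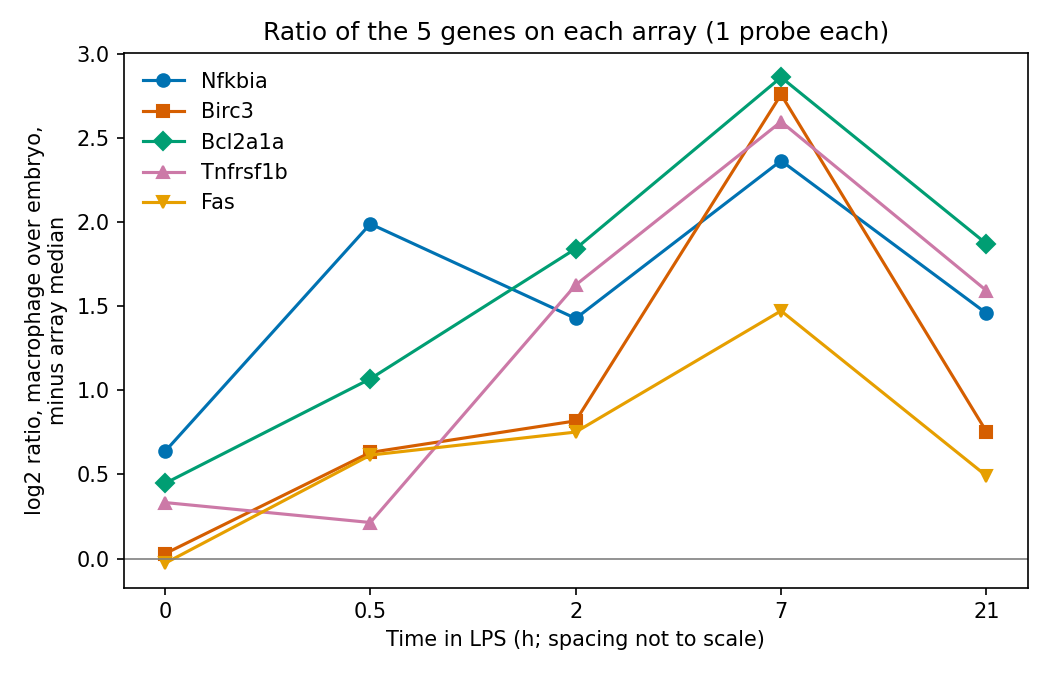
Log2 ratio of macrophage over embryo, minus the array median, for Nfkbia, Birc3, Bcl2a1a, Tnfrsf1b and Fas at 0, 0.5, 2, 7 and 21 h of LPS. Each point is 1 probe on 1 array, with no error bar because there are no replicates. All 5 lines are highest at 7 h, and Nfkbia has a separate high value at 0.5 h.

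The feedback gene Nfkbia (probe 7280) had log2 ratios of 0.64, 1.99, 1.43, 2.36 and 1.46 at 0, 0.5, 2, 7 and 21 h. It was high at 0.5 h, lower at 2 h, highest at 7 h and lower again at 21 h, and no array was as low as 0 h. Against 0 h this gives 2.55-fold, 1.73-fold, 3.31-fold and 1.77-fold at 0.5, 2, 7 and 21 h. At 0.5 h 333 of all 8637 genes (3.86%), and 35 of the 5996 outside the marked runs (0.584%), stood at least as far above 0 h, Nfkbia itself counted. At 2 h these numbers were 1403 (16.2%) and 393 (6.55%), and at 7 h 72 and 45. From 0.5 h to 2 h the log2 ratio differed by -0.56, and from 2 h to 7 h by 0.94. By the log2 scale, 78.3% of the 7 h change was already there at 0.5 h, more than for any other of the 5 genes, for which this share was between -5.24% and 42.9%. The 7 h value exceeded the 0.5 h value by 1.30-fold only, a gap of 0.756 times the SD between probes of one gene outside the runs, explained below. That SD is for the change from 0 h to 7 h and was computed neither for this gap nor after quantile normalization. With quantile normalization of the arrays the gap was 2.75-fold, and 34.9% of the 7 h change was there at 0.5 h. The weight of the early value thus depends on scaling.

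Birc3 (probe 1780), which blocks death signalling at the TNF receptor complex, had log2 ratios of 0.03, 0.63, 0.82, 2.76 and 0.75 in order of time. Here 7 h stood alone, and the 0.5, 2 and 21 h arrays lay within 0.19 of each other. Against 0 h it was 1.52-fold, 1.73-fold, 6.63-fold and 1.65-fold higher. Only 15 of 8637 genes (8 of 5996 outside the runs), Birc3 included, stood as far above 0 h at 7 h. The step from 2 h to 7 h was 3.83-fold up and that from 7 h to 21 h 4.01-fold down, at percentiles 99.8 and 0.0695 of all genes. Both steps rest on the same 7 h array and the same probe, so a high reading of this one spot would give both.

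Bcl2a1a (probe 6659) had log2 ratios of 0.45, 1.07, 1.84, 2.86 and 1.87. It was higher at each time up to 7 h, and its 2 h and 21 h values differed by 0.03. The folds over 0 h were 1.54, 2.63, 5.33 and 2.68, and 27 genes in all (12 outside the runs), itself counted, stood as high against 0 h at 7 h. It held 59.0% of its 7 h change at 21 h, against 26.6% for Birc3. The mouse genome holds several near-identical copies of this gene. In promoter sequence longer than the 250 bases printed above, Bcl2a1a and Bcl2a1b were 99.2% identical over 256 aligned positions, and Bcl2a1a and Bcl2a1d 96% over 300 positions. Transcript sequences, on which binding to a cDNA spot rests, were not compared. Bcl2a1b, Bcl2a1c and Bcl2a1d have no probe under their own symbol, and a cDNA spot may bind RNA of every copy, so the Bcl2a1a value cannot be told apart from that of the copies.

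Tnfrsf1b (probe 2651), a TNF receptor without the death domain of the type 1 receptor, had log2 ratios of 0.33, 0.21, 1.63, 2.60 and 1.59. The 0 h and 0.5 h values were both low and the other 3 were all high. At 0.5 h it stood at 0.921 of the 0 h level, a log2 change of -0.12, the only change of the 5 genes below 0. The later folds over 0 h were 2.45, 4.80 and 2.39. From 0.5 h to 2 h it was 2.66-fold higher, the largest step of the 5 genes in that interval. At 7 h 36 of the 8637 genes (19 outside the runs), itself counted, were at least as far above 0 h.

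Fas (probe 6983), whose product can start apoptosis on binding its ligand, had log2 ratios of -0.03, 0.61, 0.75, 1.47 and 0.49. It had the smallest 7 h change of the 5 genes, and its 0.5, 2 and 21 h values were close to each other and above 0 h. Against 0 h it was 1.56-fold, 1.72-fold, 2.83-fold and 1.43-fold higher, and 118 genes including Fas (85 outside the runs) stood as far above 0 h at 7 h. The 21 h value was the lowest of the 5 genes at that time. Then 11.3% of genes, over all genes as well as outside the runs, stood as far above 0 h as Fas or further.

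The count of genes at least 2-fold above 0 h was 1 of 5 at 0.5 h (Nfkbia), where 5.95% of all 8637 genes and 1.28% of the 5996 genes outside the marked runs passed the same size. It was 2 of 5 at 2 h (Bcl2a1a and Tnfrsf1b), beside 12.4% of all genes and 4.22% outside the runs. At 7 h it was 5 of 5, beside 4.08% and 4.52%. At 21 h it was 2 of 5 (Bcl2a1a and Tnfrsf1b again), beside 3.05% and 2.55%. None of the 5 was 2-fold lower at any time. The 5 genes were chosen with earlier results of these data known, so these counts are no independent comparison with all genes. The median log2 change of the 5 genes was 0.62, 0.79, 2.26 and 0.82, against medians of 0.08, 0.07, -0.00029 and 0.02 over all genes. The 4 comparisons share the 0 h array, so a low reading there would raise all of a gene's changes together.

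**Figure D2:**
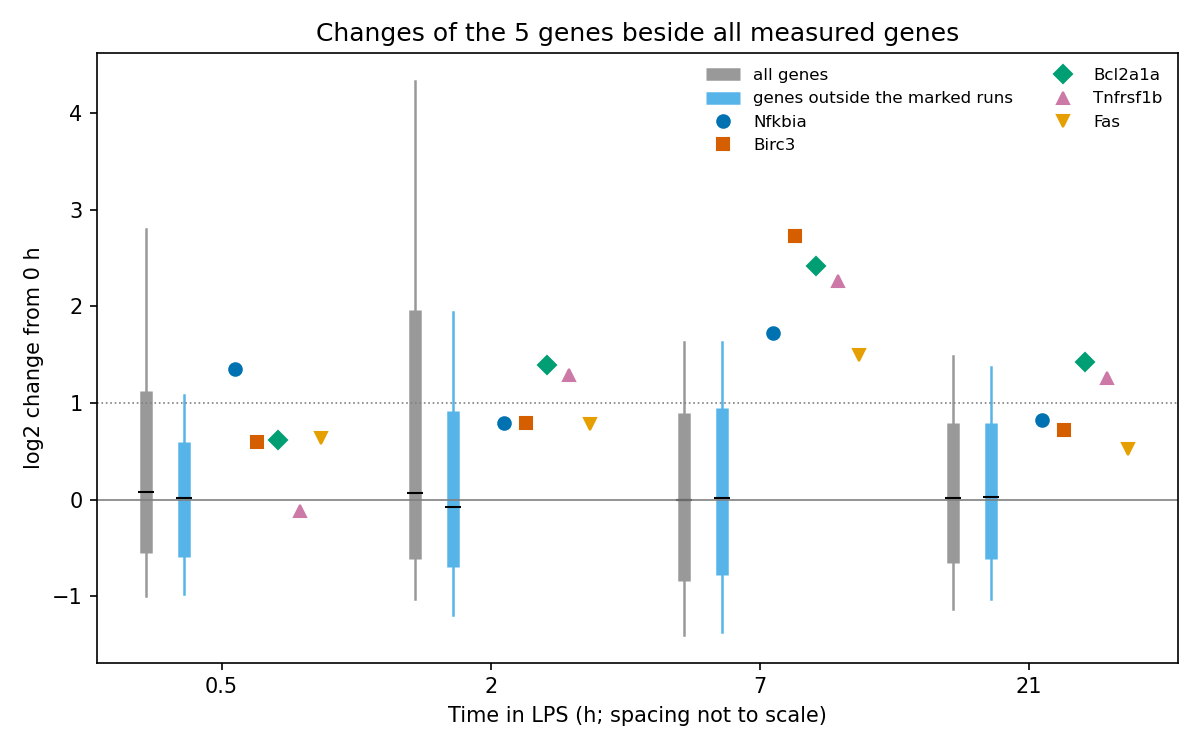
Log2 change from 0 h at 0.5, 2, 7 and 21 h for the 5 genes (coloured symbols, 1 probe each) beside all 8637 genes (grey) and the 5996 genes outside the marked runs (blue). Thick bars span the 5th to 95th percentile, thin lines the 1st to 99th, black ticks are medians, and the dotted line is 2-fold. At 7 h Nfkbia, Birc3, Bcl2a1a and Tnfrsf1b lie above the 99th percentile of all genes (1.63) and Fas, at 1.5, below it.

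The only error estimate these arrays allow is the spread between different probes of one gene. Pooled over 3015 genes with several probes, its SD was 0.67, 0.97, 0.51 and 0.47 on the log2 scale of the change at 0.5, 2, 7 and 21 h, and 0.42, 0.55, 0.50 and 0.43 over 1457 genes with several probes outside the runs. It is technical, includes differences between clones, and holds nothing of the spread between cultures or animals. The second SD comes from probes that, like these 5, lie outside the runs, and both are used below. As the marked runs were picked by high early values, leaving them out itself tends to lower the SD at 0.5 and 2 h. Multiples of the second SD at these 2 times may therefore be too large. The 7 h changes were 5.50 (Birc3), 4.86 (Bcl2a1a), 4.56 (Tnfrsf1b), 3.48 (Nfkbia) and 3.02 (Fas) times the SD outside the runs, and 2.92 to 5.31 times that of all genes. At 0.5 h the Nfkbia change was 3.19 times the SD outside the runs and 2.01 times that of all genes. Birc3, Bcl2a1a and Fas were at 1.42 to 1.52 times the first and 0.893 to 0.954 times the second, so whether they went beyond the spread depends on which SD is used. Tnfrsf1b was within both at 0.5 h. At 2 h Bcl2a1a and Tnfrsf1b were at 2.55 and 2.37 times the SD outside the runs (1.44 and 1.34 times that of all genes). Nfkbia, Birc3 and Fas were at 1.43 to 1.45 times at 2 h, and at 0.807 to 0.818 times with all genes. At 21 h the multiples ran from 1.2 (Fas) to 3.28 (Bcl2a1a) outside the runs.

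Ordered by the change from 0 h at 7 h, the genes were Birc3 (log2 change 2.73), Bcl2a1a (2.41), Tnfrsf1b (2.26), Nfkbia (1.73) and Fas (1.5). The largest gap, between Tnfrsf1b and Nfkbia, was 1.08 times the SD between probes outside the runs, and the other neighbours were 0.302 to 0.636 times apart. That SD is for the change of 1 probe, whereas a gap holds the spread of 2 probes. A gap near 1 times that SD thus lies within the spread and does not settle the order. At 21 h the order was Bcl2a1a, Tnfrsf1b, Nfkbia, Birc3 and Fas. The gap between Tnfrsf1b and Nfkbia was 1.01 times that SD (0.931 times the SD of all genes), and the other 3 gaps were 0.220 to 0.475 times. Birc3 thus ranked 1 at 7 h and 4 at 21 h. At 0.5 h Nfkbia stood 1.68 times the SD outside the runs above Fas, and Tnfrsf1b 1.70 times that SD below Birc3. By the SD of all genes these gaps were 1.05 and 1.07 times. At that time Fas, Bcl2a1a and Birc3 lay within 0.041 log2 units of one another. At 2 h Nfkbia, Birc3 and Fas were within 0.011 log2 units of one another.

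The later course was set beside that of all 352 genes at least 2-fold above 0 h at 7 h. Of these, 83.0% were lower at 21 h than at 7 h, and the median gene held 65.8% of its 7 h log2 change at 21 h. Outside the marked runs the values were 86.7% and 60.1% over 271 genes. The 5 genes held 59.0% (Bcl2a1a), 55.6% (Tnfrsf1b), 47.5% (Nfkbia), 34.6% (Fas) and 26.6% (Birc3), all below both medians. A difference of 2-fold or more from 7 h down to 21 h was found in 14.5% of the 352 genes, among them Birc3 and Tnfrsf1b, and 6 of the 352, with Birc3, were lower by at least as much as Birc3. At 2 h the median gene had 57.3% of its 7 h change (52.1% outside the runs), and the 5 genes had 28.9% (Birc3) to 57.8% (Bcl2a1a). Genes picked for a high 7 h value tend to be lower on any other array, which applies to these shares too. Over all 8637 genes, 21.2% had their highest ratio of the 5 arrays at 7 h (23.8% outside the runs), as did all 5 genes here.

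Each probe was also set against the other 95 probe numbers of its run, which may share spotting and position on the array. The runs of the 5 probes had between 0% and 8.14% of probes past 2-fold at 0.5 h and between 2.11% and 6.52% at 2 h. At 7 h the median change of the other probes was 0.36 log2 units in the run of Nfkbia and 0.01 to 0.12 in the other 4 runs. None of the other probes in the runs of Birc3 and Bcl2a1a stood as high as these genes at 7 h, and 3, 2 and 3 did in the runs of Nfkbia, Tnfrsf1b and Fas. Around Nfkbia the other probes had medians of 0.23, 0.13, 0.36 and 0.27 at the 4 times, so part of its neighbourhood was raised as well. With each array centred on the run, the Nfkbia change at 7 h was 1.37 in place of 1.73, while Birc3, Bcl2a1a, Tnfrsf1b and Fas stood at 2.50, 2.42, 2.21 and 1.48. The run of Bcl2a1a held several very high probes at 0.5 h, with a 95th percentile of 1.26, and 9 of its probes stood at or above the Bcl2a1a change at that time. Probes with changes of 5.96 and 3.61 at 0.5 h stood at 7.69 and 4.72 at 2 h, and at -1.34 and -0.75 at 7 h. At 2 h 4 other probes reached the Bcl2a1a change. With 8.14% and 5.81% of probes past 2-fold at 0.5 h and 2 h this run was not marked, but it was partly raised at both times.

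**Figure D3:**
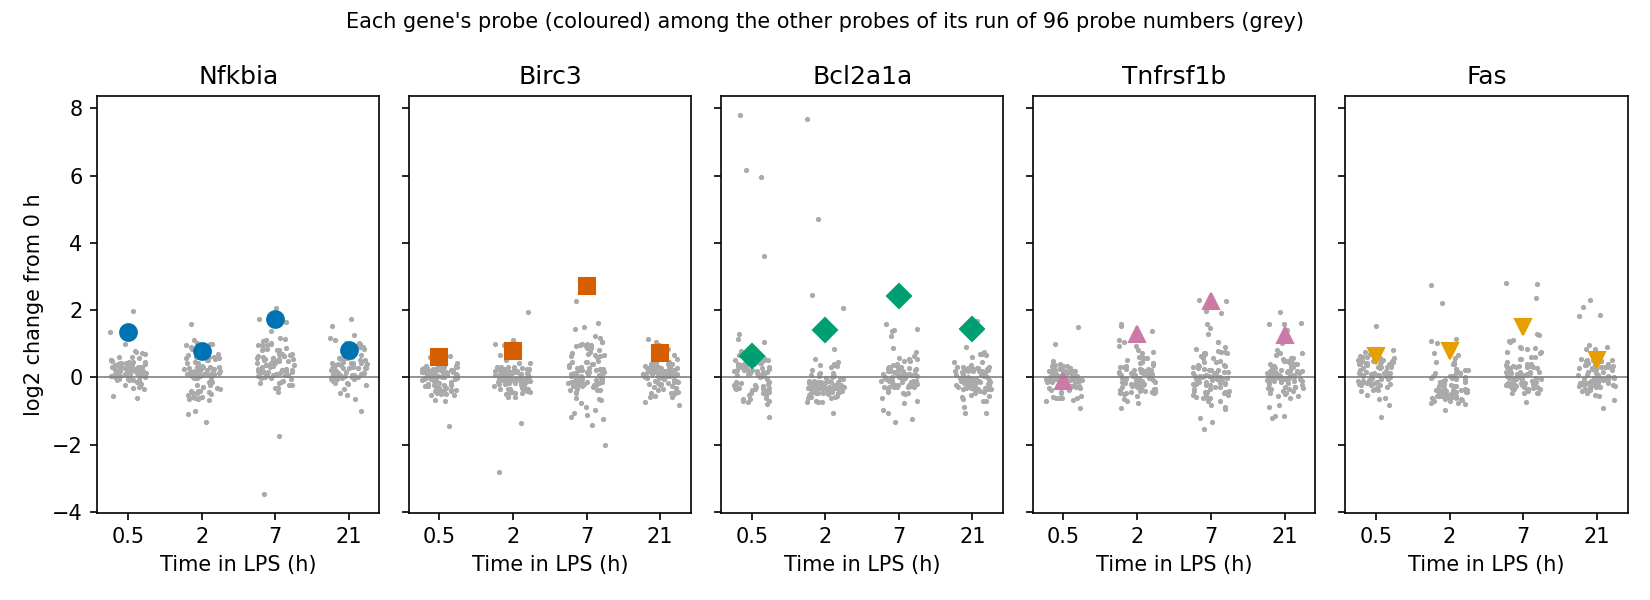
Log2 change from 0 h of each gene's probe (coloured) and of the other probes in its run of 96 consecutive probe numbers (grey, spread sideways at random) at 0.5, 2, 7 and 21 h. At 7 h the probes of Birc3 and Bcl2a1a lie above every other probe of their runs, while 3, 2 and 3 others reach those of Nfkbia, Tnfrsf1b and Fas.

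The other genes of the pathway, from lists chosen with earlier results of these data known, were mostly within 2-fold of 0 h. Of 137 listed genes other than the 5, 48 were measured. At least 2-fold above 0 h were 3, 6, 6 and 3 of them at 0.5, 2, 7 and 21 h, and 1 was 2-fold lower, at 21 h only. Of all 8637 genes, 5.95%, 12.4%, 4.08% and 3.05% were 2-fold higher at these times. Outside the marked runs the counts were 0, 0, 2 and 2 of 33 pathway genes, beside 1.28%, 4.22%, 4.52% and 2.55% of the 5996 genes there. The 48 genes had median log2 changes of 0.12, 0.20, -0.06 and -0.02, close to those over all genes.

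Among the inhibitors, Nfkbib, encoding IkappaBbeta, was 2.41-fold higher at 7 h (log2 change 1.27, SD over its 2 probes 0.30). At 2 h its probes disagreed, with a log2 mean of 2.23 and an SD of 3.19. Cyld, a deubiquitinase that damps the pathway, had a log2 mean of 3.74 at 2 h with an SD of 5.36 over 2 probes, and 0.27 at 7 h (SD 0.18). All 4 probes of Nfkbib and Cyld lie in marked runs. The remaining 5 of the 7 inhibitors measured, Nfkbid, Tnip2, Commd1, Nkiras1 and Nkiras2, stayed within 2-fold of 0 h at all times. Rela, the p65 subunit and the only subunit gene measured, had log2 changes of -0.20, -0.15, 0.15 and -0.18.

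Of 15 measured genes of the IKK complex and its adaptors, 1, 2, 2 and 1 were at least 2-fold higher at the 4 times and 0 lower. Over all genes the shares that were 2-fold higher were 5.95%, 12.4%, 4.08% and 3.05%. Tank, an adaptor that binds TRAF proteins, was 1.80-fold, 2.61-fold and 2.89-fold higher at 2, 7 and 21 h. Its probe lies outside the marked runs but in the run of the Nfkbia probe, where other probes were raised as well. Unlike the 5 genes, Tank stood no lower at 21 h than at 7 h. The other 2-fold gene at 7 h was Tab2, an adaptor of the kinase TAK1, with a log2 change of 1.29; it was picked out after its value was seen. Map3k8, a kinase bound by the NF-kappaB precursor p105, was 20.4-fold higher at 2 h and 1.28-fold at 7 h, and Traf5 2.23-fold at 2 h and 0.848-fold at 7 h, each on 1 probe in a marked run.

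Among the relatives of Birc3 and Bcl2a1a few were measured. Birc5, the mitotic survivin gene and the only other IAP gene, was lower, by a log2 change of -0.68 at 7 h and of -1.16 at 21 h, on a probe in a marked run. Mcl1, the only other pro-survival Bcl2 gene, stood 0.48 log2 units above 0 h at 7 h and 0.36 at 21 h. The SDs over its 4 probes were 0.47 and 0.46, about as large as these changes or larger. Without its 1 probe in a marked run the changes were 0.27 and 0.13. Of 8 pro-death Bcl2 relatives, 0 were 2-fold higher at 7 h and 1 at 21 h, beside 4.08% and 3.05% of all genes. The 1 gene was Bnip3, a mitophagy receptor also induced by low oxygen, at 2.88-fold (SD over 2 probes 0.23 on the log2 scale).

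Among the receptors and their death signalling, Tnfrsf1a, the type 1 TNF receptor with a death domain, was 2.01-fold higher at 7 h and had a log2 change of -0.26 at 21 h, against 4.80-fold and 2.39-fold for Tnfrsf1b; its probe lies in a marked run. The other 6 of 7 further TNF receptor family genes stayed within 2-fold at all times. For Edar, the ectodysplasin receptor, the 2 h change was 0.62 and the 7 h change -0.79 on the log2 scale. Casp8, the initiator caspase below Fas, was 2.87-fold higher at 7 h and 1.85-fold at 21 h on a probe in a marked run. Cflar, which blocks that caspase, had a log2 change of 1.41 at 7 h, but its 2 probes disagreed (SD 1.47). Ripk3, a kinase of necroptosis, differed from 0 h by 1.61 log2 units at 0.5 h (SD over 2 probes 2.57) and by -0.60 at 7 h (SD 0.06), both probes lying in marked runs.

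**Figure D4:**
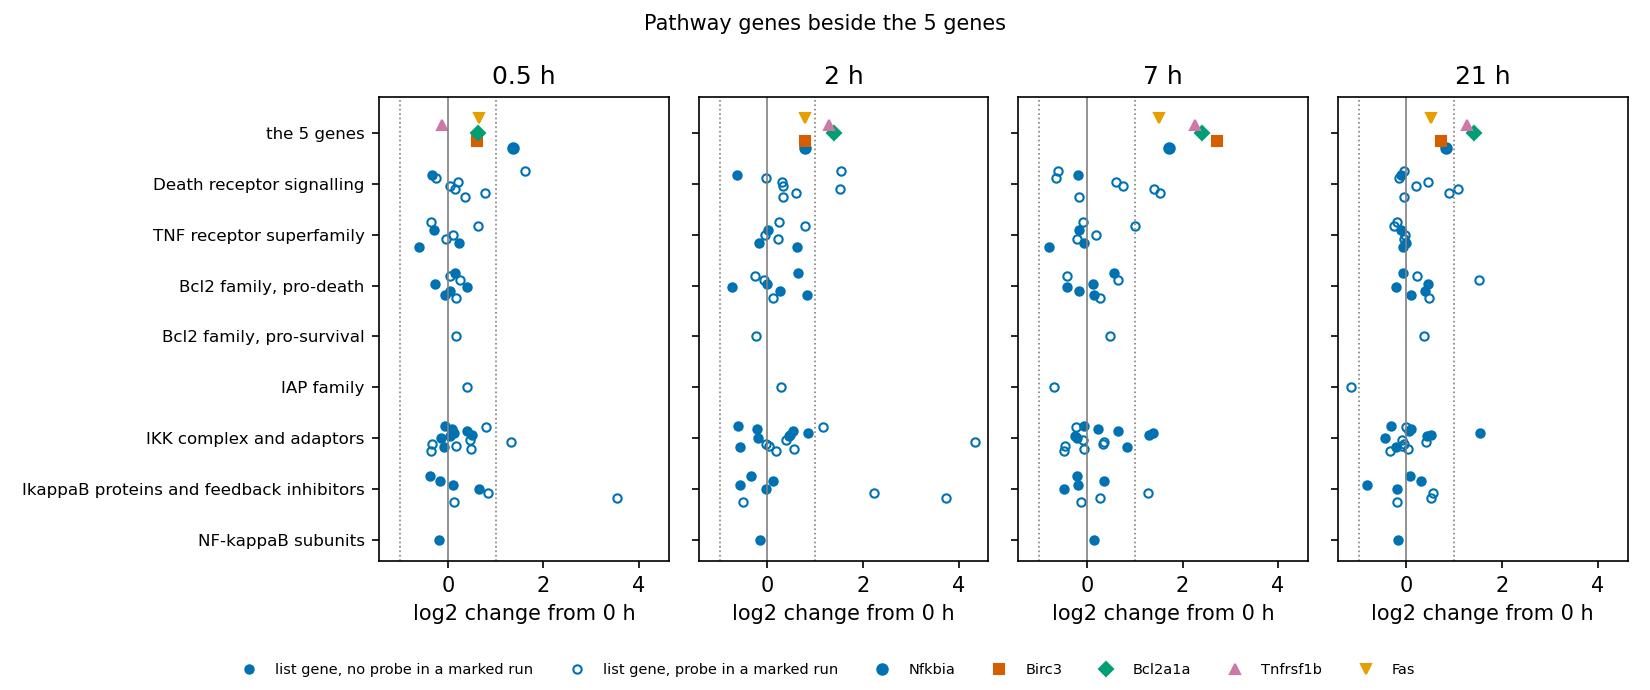
Log2 change from 0 h of the 48 measured pathway genes, by list (blue; filled where no probe lies in a marked run, open where at least 1 does; a gene in 2 lists is drawn in both), and of the 5 genes (top row) at 0.5, 2, 7 and 21 h. Dotted lines mark 2-fold in either direction. At 7 h all 5 genes are past the upper 2-fold line, where 6 of the 48 others and 4.08% of all genes are.

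The genes closest to each of the 5 in their 4 log2 changes were sought among 4248 genes with all probes outside the marked runs, by Euclidean distance. The search used the same arrays and the shared 0 h values, and closeness says nothing of a common control. Fas had the closest neighbours, Ogfr, Mrps12 and Ext1, at distances of 0.18, 0.24 and 0.28 log2 units. Bcl2a1a was closest to Irf7 (0.48), Exosc4 (0.54) and Dram1 (0.74). Irf7, a regulator of interferon genes, was also among the 3 nearest of Tnfrsf1b (0.65), after Parp9 (0.60) and Fitm1 (0.64). Nfkbia was closest to Bri3 (0.50), whose probe lies in the run of the Nfkbia probe, Maea (0.74) and D930020B18Rik (0.77), and Birc3 to Polg (0.70), Ly86 (0.83) and Dram1 (0.95). Between the 5 genes themselves the closest pair was Bcl2a1a and Tnfrsf1b at 0.78 and the farthest Nfkbia and Tnfrsf1b at 1.70.

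Markers of other blood cells were compared because the cultures came from bone marrow. The 7 measured of 12 neutrophil markers had median log2 ratios between -0.27 and 0.39 on the 5 arrays. The median was 0.21 at 7 h, where the 5 genes were highest, and -0.27 at 21 h. Single neutrophil markers differed: at 7 h they ranged from -0.56 (Mmp9) to 1.56 (Elane), with 5 of 7 above 0. Ngp and Elane stood at 1.14 and 1.11 at 0 h already, and Ngp at 1.36 at 7 h. At 21 h Ngp was at -0.48 and Mmp9 at 1.09. The 8 macrophage markers had a median change from 0 h of 0.55 at 7 h and 0.47 at 21 h. B cell markers, of which 3 of 8 were measured, had median changes of 1.13, 0.82, 1.03 and 0.46 at 0.5, 2, 7 and 21 h. The 2 measured T and NK cell markers had a median change of 0.46 at 7 h, and the 3 measured of 7 mast cell markers one of -1.05. Their part in the changes of the 5 genes was not tested.

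The count of genes past 2-fold depended on scaling at 0.5, 2 and 21 h, and so did the size of the changes at 7 h. At 21 h it was 3 of 5 with quantile normalization, beside 3.75% of all genes, and Nfkbia stood at 1.05. With centring on runs it was 3 of 5 at 2 h, beside 10.1% of all genes, and Fas stood at 1.06. With quantile normalization 0 of the 5 genes were 2-fold higher at 0.5 h and at 2 h, where the Nfkbia changes were 0.78 and 0.05. The shares of all genes were also lower there, 2.78% and 4.98% against 5.95% and 12.4% as reported. At 7 h all 5 passed with quantile normalization, beside 4.83% of all genes, and ranged from 1.92 (Fas) to 3.76 (Birc3). With the 0.5 h array as the baseline, 3 of 5 passed at 7 h: Birc3, Bcl2a1a and Tnfrsf1b at 2.13, 1.79 and 2.38. Fas stood at 0.86 and Nfkbia at 0.38 on that baseline. Nfkbia then stood below it at 2 h (-0.56) and 21 h (-0.53), and Fas at 21 h (-0.12). Read as log2, 0 of 5 passed 2-fold at any time, with Birc3 at 0.82 at 7 h.

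**Figure D5:**
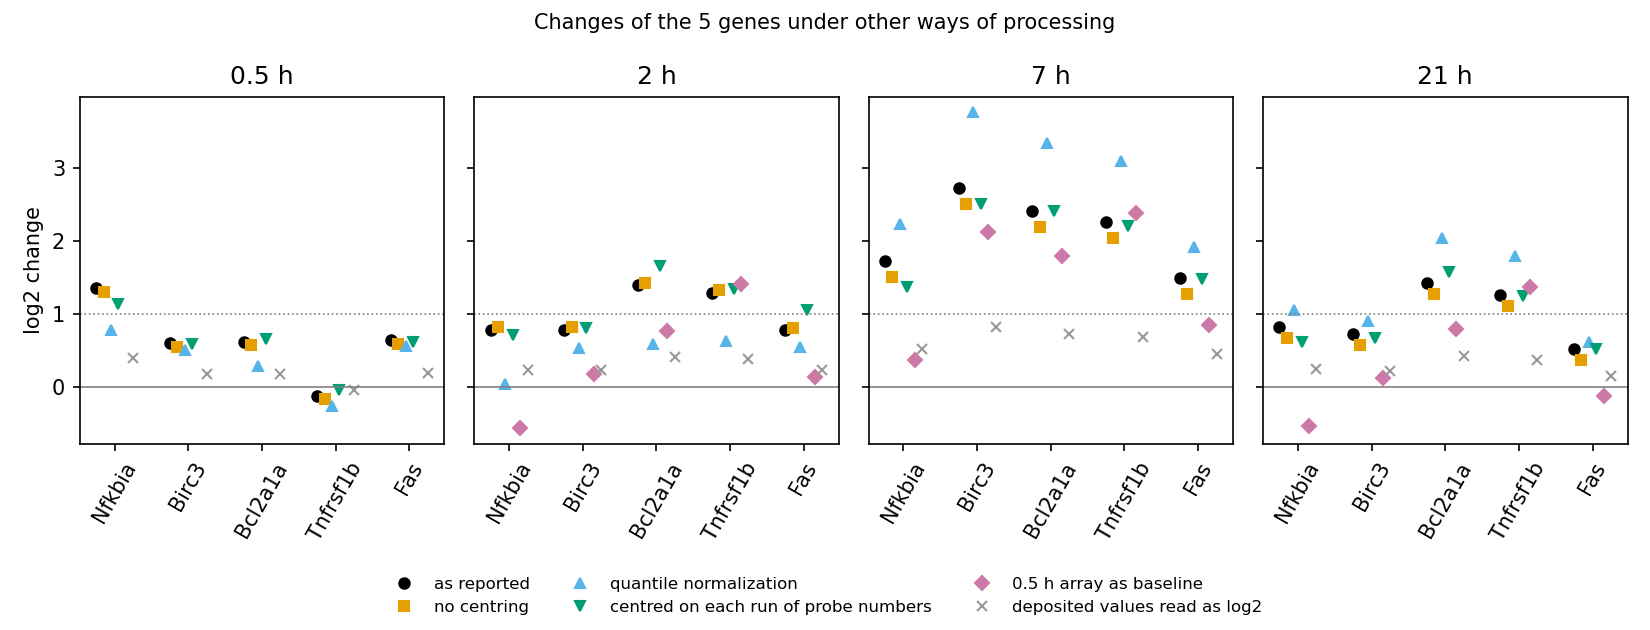
Log2 change of the 5 genes at 0.5, 2, 7 and 21 h as reported (black) and under 5 other ways of processing; the change is from 0 h except where the 0.5 h array is the baseline, and the dotted line is 2-fold. At 7 h every setting leaves all 5 genes above 0, from 0.38 for Nfkbia against the 0.5 h array to 3.76 for Birc3 with quantile normalization.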

How the data were processed

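Log ratios were deposited as 1 table of 19828 probes and 5 arrays, 1 array a time point. Per the labels' protocols, total RNA was extracted with a column kit and cDNA was labelled indirectly through amino-allyl nucleotides. The normalization by the authors, the log base and the direction of the deposited log10 ratios are not given in the sources used here. Values were multiplied by 3.32 to log2, and the median of the 18296 probes with a value on every array was subtracted from each array. Probes were named from the platform annotation of 2008: 14759 had 1 symbol, 170 several and 4899 none. Probes of one symbol were averaged. With 1 array a time there is no test; counts use a size rule of 2-fold. The code was tested on simulated data. The gene choice, the lists, the runs and the alternatives were made with earlier results of these data known.

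Named were the 5 genes and, per list, up to 3 genes with the largest change at 2, 7 or 21 h that passed 1.5-fold in the same direction at another time; then the 3 nearest genes of each. Tab2, the genes of a list that stayed within 2-fold (Nfkbid, Tnip2, Commd1, Nkiras1, Nkiras2) and those measured alone in theirs (Rela, Mcl1) were named outside this rule, after their values were seen. Python 3.11.15 with numpy 2.4.6 and pandas 2.3.3 was used. Depth does not apply to arrays; their number limits the precision.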

Additional observations from a re-analysis of the deposited data

Results flagged for a closer look

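Edar and Ripk3 were marked because each stood at least 1.5-fold above 0 h at one time and at least 1.5-fold below it at another. Edar had a log2 change of 0.62 at 2 h and -0.79 at 7 h on 1 probe outside the marked runs. Ripk3 had a log2 change of 1.61 at 0.5 h and -0.60 at 7 h, with both probes in marked runs. These differences between times rest on 1 array each and were not tested. None of the 5 NF-kappaB target genes met this rule, and groups of 1 array allow no check for a sample far from its group.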

How the results depend on the processing

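The IAP list has no measured gene outside the runs besides Birc3, so it gives no median there. No paired analysis was possible because each time point has 1 array, so no replicates could be left out either. In order of 0.5, 2, 7 and 21 h, 1, 2, 5 and 2 of the 5 genes were at least 2-fold higher. Quantile normalization gave 0 at 0.5 h, 0 at 2 h and 3 at 21 h, and centring on runs gave 3 at 2 h. Of all genes, 2.78%, 4.98% and 3.75% passed at 0.5, 2 and 21 h with quantile normalization. With centring on runs 10.1% of all genes passed at 2 h. Reading the values as log2 gave 0 at all 4 times, and the 0.5 h baseline 1, 3 and 1 at 2, 7 and 21 h. A 1.5-fold rule gave 4, 5 and 4 at 0.5, 2 and 21 h. For the log2 reading, that baseline and that rule no share over all genes is given here. Of the 48 other pathway genes 3, 6, 6 and 3 were higher, and 0, 0, 0 and 1 lower. Higher numbered 1 and 2 at 0.5 and 2 h with quantile normalization, 0, 0 and 2 at 0.5, 2 and 7 h outside the marked runs, 1, 2, 0 and 0 with values read as log2, 2 at 7 h on the 0.5 h baseline, and 8, 12 and 11 at 0.5, 2 and 7 h by 1.5-fold. Lower numbered 2, 3 and 4 at 0.5, 2 and 7 h with quantile normalization, 1, 5 and 3 at 2, 7 and 21 h on the 0.5 h baseline, 1 at 7 h without centring, 1 at 2 h and 0 at 21 h with centring on runs, 0 at 21 h outside the runs and with values read as log2, and 1, 3, 4 and 2 by 1.5-fold. The cause of these differences was not tested. No change of 2-fold or more of the 5 genes turned its direction under any alternative. Updating symbols changed no count of the 5 genes. The median over probes, the use of probes missing on some arrays and leaving out the marked runs could not change one. Each of the 5 genes has 1 probe, with a value on every array and outside those runs. Without centring the median over all genes at 7 h moved by -0.22. Signal over background was not analysed here.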
